A study of Mus musculus with 212 samples.

Results

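The genes described here are Trp53, which encodes the transcription factor p53, and 7 genes for inhibitors of the cyclin-dependent kinases (CDKs), Cdkn1a, Cdkn1b, Cdkn1c, Cdkn2a, Cdkn2b, Cdkn2c and Cdkn2d. They were found by matching the gene identifiers of the expression table to these symbols, and all 8 were found among the 47631 genes of the table. All 8 also passed the filter on low values, which asks for an average of 1 FPKM or more in the libraries compared. FPKM counts fragments relative to transcript length and to the mapped total of the library, so levels of different genes can be set side by side per unit of length. The set was proposed because Cdkn1a differed between the genotypes in these same data, so differences in level between the genotypes are given below as descriptions without a test. Whether the change with temperature differs between the genotypes was tested, though for Cdkn1a that test is not independent of the choice.

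p53 is held at a low level by the ubiquitin ligase Mdm2 and accumulates after DNA damage and other stresses, when it activates genes for cell cycle arrest, repair and cell death. Its best known arrest target is Cdkn1a, whose product p21 belongs with p27 (Cdkn1b) and p57 (Cdkn1c) to the CIP/KIP family, which binds complexes of cyclins with CDKs. The INK4 family, encoded by Cdkn2a, Cdkn2b, Cdkn2c and Cdkn2d, binds Cdk4 and Cdk6 and keeps the retinoblastoma proteins active. Cdkn2a has a second product, p19ARF, read from another first exon in another reading frame, which binds Mdm2 and thereby stabilises p53. In cultured mouse fibroblasts Cdkn2a is known to be switched on as passages accumulate, and loss of p53 or of Cdkn2a is a usual route to an immortal line.

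The series holds 212 RNA-seq libraries of skin fibroblasts from C57BL/6 mice, either wild type (WT) or lacking the clock gene Bmal1 (Bmal1-/-, gene symbol Arntl). All cells were grown to confluence in serum medium, treated with 100 nM dexamethasone for 15 min to align their clocks, washed and moved to HEPES-buffered medium. Harvest began 48 h after dexamethasone, and the labels give circadian time (CT) in hours, starting at CT0. Each genotype has 5 courses with 1 library per time point: AM and PM, each with 17 time points every 3 h from CT0 to CT48, and 27C, 32C and 37C, named for the culture temperature, each with 24 time points every 2 h from CT0 to CT46. The labels do not say what distinguishes AM from PM or give those courses a temperature of their own, and the protocols give n = 3 per time point and genotype without saying whether these were pooled into the 1 library. They also do not say how many animals or lines the cells came from, so the p-values below rest on the scatter of libraries along a course, and none is a comparison of separate preparations.

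Estimated depth ran from 9980000 to 32560000 fragments per library, with a median of 23700000, and the WT CT36 AM library was the shallowest. The deposited Arntl level was not lower throughout in Bmal1-/- cells. Its ranges in the genotypes overlapped in 4 of 5 conditions, and at 27C it ran from 2.81 to 6.83 FPKM in WT and from 7.08 to 9.26 FPKM in Bmal1-/- cells. No source here says which exons were deleted, so this value does not check the labels. The 11 fibroblast markers examined, collagens and Pdgfra among them, all had a median of at least 1 FPKM in every course, while the keratinocyte genes Krt5 and Krt14, the leukocyte genes Ptprc and Adgre1 and the melanocyte and glial genes Tyr and Sox10 had a median of 0 FPKM in every course. Other genes of the same lists were present, with medians of up to 30.4 FPKM for Cd68 (WT 27C), 16.3 FPKM for Mitf (WT PM) and 16.9 FPKM for Mlana (WT 32C). The libraries labelled CT14 27C went against their labels. The one labelled WT held Cdkn1a at 109.5 FPKM and the one labelled Bmal1-/- held it at 3.87 FPKM. For each of the 5 genes of the set whose genotype ranges at 27C did not overlap (Cdkn1a, Cdkn1b, Cdkn1c, Cdkn2a and Cdkn2b), both libraries lay nearer the median of the other genotype. These 2 libraries were left out, which leaves 210, and values with them kept under their labels are given where they changed a call or moved a ratio. With them kept the ranges of these 5 genes at 27C would overlap.

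The DNA upstream of Cdkn1a is shown because this gene sets the genotypes apart most widely. RefSeq gives windows from 250 bases before to 50 bases after a start for 7 of the 8 genes, 10 windows in all (build GRCm38.p6). The 250 bases before the first Cdkn1a start, chr17:29090729-29090978 on the + strand, are given here 5′ to 3′ with a match to the p53 response element in capitals.
Cdkn1a upstream: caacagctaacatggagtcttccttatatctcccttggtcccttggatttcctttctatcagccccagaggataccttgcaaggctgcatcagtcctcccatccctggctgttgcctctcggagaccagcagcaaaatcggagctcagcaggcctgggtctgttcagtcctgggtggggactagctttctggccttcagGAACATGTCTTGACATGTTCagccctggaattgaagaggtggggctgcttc
The match, chr17:29090928-29090947, is 20 bases long and begins 51 bases before that start. It consists of 2 adjacent p53 decamers with no bases between them and 1 mismatch to the consensus, none at the fixed C and G of either decamer. A match with at most 1 mismatch on either strand was found in 22 of the 32851 mouse windows of this length (0.07%), and among the 10 windows of the set this was the only one. Cdkn1a has another start downstream, at chr17:29093769, and the window of that start holds no match.

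The motif CACGTG, the E-box bound by BMAL1 with its partner CLOCK, was looked for in the same windows on both strands. It occurs in 2349 of 32851 windows (7.15%) and in 2 windows of the set, at Trp53 (chr11:69580359-69580384, + strand, motif beginning at base 10 from the start) and at the second start of Cdkn2c (chr4:109665323-109665348, − strand, beginning at base 34). Both sites are given with 10 bases on each side and the motif in capitals. These matches are descriptions of the sequence and not measured binding.
Trp53: tttcccctccCACGTGctcaccctgg
Cdkn2c: gctgaataatCACGTGtgaatcgagg

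Cdkn2a was the most abundant of the 8 transcripts in all 10 courses, with medians of 563 to 912 FPKM in WT and 173 to 238 FPKM in Bmal1-/- cells. In WT cells Cdkn2b, Trp53, Cdkn1b and Cdkn2c followed in this order in all 5 courses, and Cdkn1a was the lowest of the 8 in 4 of the 5, above only Cdkn1c at 32C. In Bmal1-/- cells Cdkn1a stood second in all 5 courses and Cdkn1c last. Some neighbours in this order could not be separated by their ranges over time, such as Cdkn2b and Trp53 in WT AM and PM, Cdkn1b and Cdkn2c in WT 27C and 37C, and Cdkn2a and Cdkn1a in Bmal1-/- 37C. All levels are bulk values, in which fewer cells with a transcript and less transcript per cell cannot be told apart.

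The make-up of the CIP/KIP family differed between the genotypes. In WT courses Cdkn1b held a median of 58.6% to 81.1% of the summed CIP/KIP FPKM, and Cdkn1a held 4.88% to 12%. In Bmal1-/- courses Cdkn1a held 73.7% to 77.6% and Cdkn1b held 21.7% to 25%. The INK4 family kept its leading gene in both genotypes. Cdkn2a held a median of 86.0% to 89.3% of the INK4 sum in WT and 71.1% to 75.1% in Bmal1-/- courses, and Cdkn2b held 7.64% to 10.1% and 17.5% to 21.7%.

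**Figure D1:**
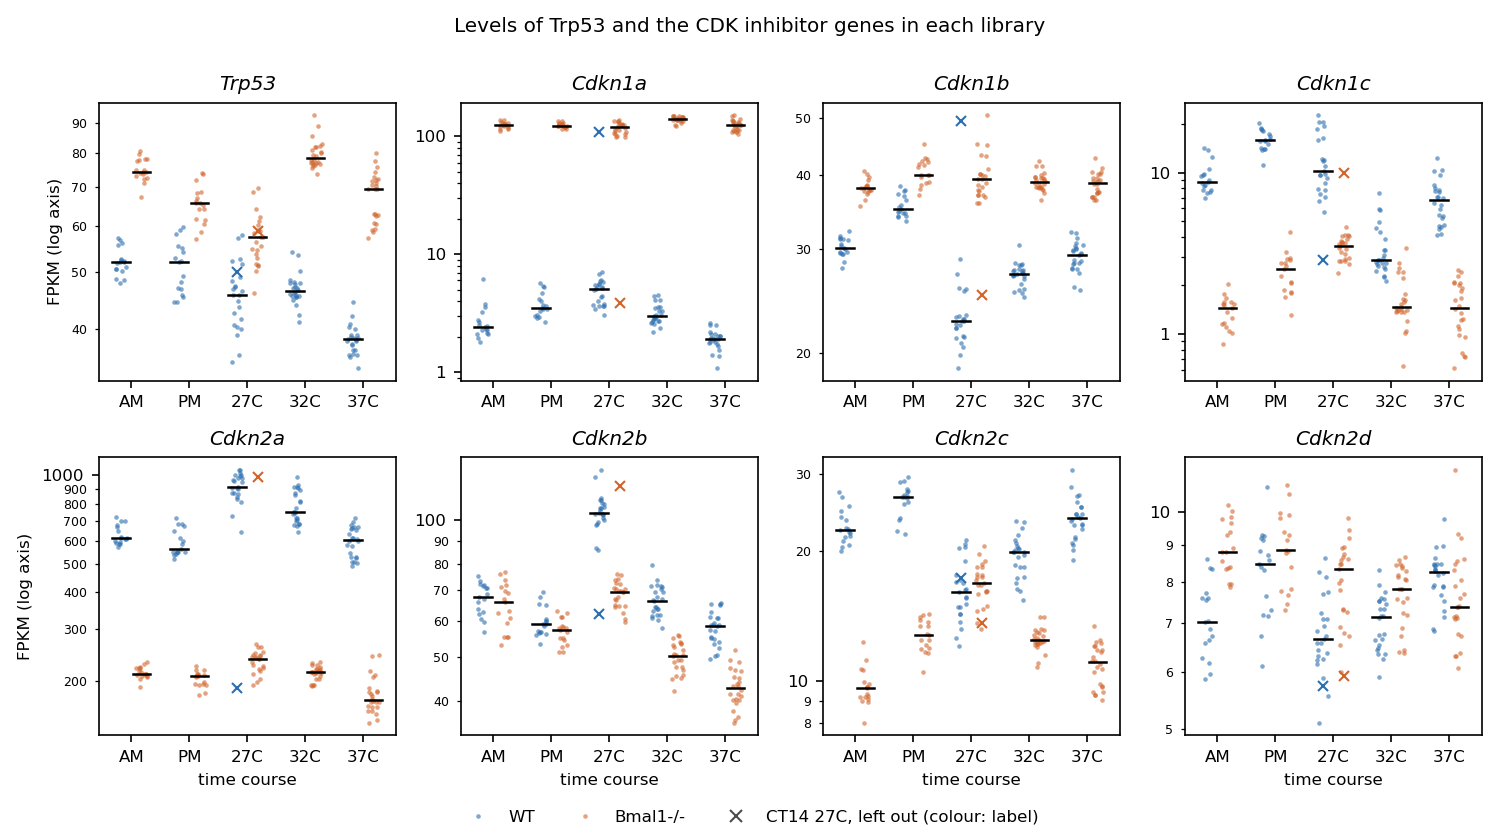
FPKM on a log axis of Trp53 and the 7 CDK inhibitor genes in each library (points), by time course, with WT in blue, Bmal1-/- in orange and the course median as a black bar. Crosses are the 2 CT14 27C libraries that were left out, coloured by their labels. Cdkn1a and Cdkn2a are the genes whose WT and Bmal1-/- points do not overlap in any of the 5 conditions.

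Over the 40 pairs of a gene and a condition, the ranges of the genotypes did not overlap in 27, with Bmal1-/- higher in 12 and lower in 15. By condition this was 6 of 8 genes in AM, 4 in PM, 5 at 27C, 6 at 32C and 6 at 37C. Of all genes tested, 34.1%, 35.5%, 28.8%, 37.1% and 29.8% had ranges that did not overlap in the same conditions. The choice of the set rested on this contrast, so nothing is read from these counts.

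Trp53 was higher in Bmal1-/- cells in all 5 conditions, by 1.25 to 1.76 times in the mean. At 37C it ran from 34.3 to 44.5 FPKM in WT cells (median 38.4) and from 57.3 to 79.9 FPKM in Bmal1-/- cells (median 69.6). At 27C the ranges were 35.1 to 57.9 FPKM (median 45.8) and 46.1 to 69.8 FPKM (median 57.4). The genotypes were separate at 37C, at 32C and in AM, and overlapped at 27C and in PM. The level of this RNA says nothing about the amount of p53 protein, which is controlled mainly by its breakdown.

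Cdkn1a was the gene of the set with the widest gap. At 37C it ran from 1.08 to 2.60 FPKM in WT cells (median 1.92) and from 105 to 150 FPKM in Bmal1-/- cells (median 125.5), a ratio of means of 65.4. At 27C it ran from 3.07 to 7.12 FPKM in WT (median 5.13) and from 97.8 to 136 FPKM in Bmal1-/- cells (median 120.7), a ratio of 24.3. On the log2 scale that ratio is 4.60, or 3.62 with the CT14 libraries kept. The lowest Bmal1-/- library of any course thus lay far above the highest WT library.

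In the other 3 conditions the Cdkn1a ratio of means was 44.4 at 32C, 45.5 in AM and 32.6 in PM. WT medians were 2.97 FPKM at 32C, 2.40 FPKM in AM and 3.49 FPKM in PM, while Bmal1-/- medians were 141 FPKM, 124 FPKM and 123 FPKM. The ratio thus varied more through its WT denominator than through the Bmal1-/- level. The highest WT AM value, 6.13 FPKM at CT36, came from the shallowest library, and the next highest was 3.81 FPKM. An estimated 47 to 274 fragments per library stand behind a WT value of Cdkn1a and 3153 to 8977 behind a Bmal1-/- value, so the relative counting error is larger in WT.

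Cdkn1b, whose product p27 holds cells in quiescence, was 1.14 to 1.75 times higher in Bmal1-/- cells in all 5 conditions, and the ranges overlapped only in PM. At 27C it ran from 18.8 to 28.8 FPKM in WT (median 22.6) and from 35.8 to 50.4 FPKM in Bmal1-/- cells (median 39.3). Bmal1-/- medians lay within 38.0 to 40 FPKM in the 5 conditions, while WT medians ran from 22.6 to 35.0 FPKM.

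Cdkn1c, an imprinted growth inhibitor expressed from the maternal allele, went the other way. Its mean was 2.06 times higher in WT at 32C and 6.82 times higher in WT AM. At 37C it ran from 4.13 to 12.3 FPKM in WT (median 6.75) and from 0.613 to 2.50 FPKM in Bmal1-/- cells (median 1.46). At 32C it ran from 2.14 to 7.52 FPKM in WT (median 2.88) and from 0.636 to 3.42 FPKM in Bmal1-/- cells (median 1.46), the only condition in which its ranges overlapped. The antisense gene Gm44732 overlaps Cdkn1c and is listed with a median of 0 FPKM over the 210 libraries, and an opposite-strand transcript, AC167363.2, overlaps Cdkn1a. No source here says whether the counting used strand, and an unstranded count could not separate either pair.

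Cdkn2a was higher in WT in all 5 conditions, by 2.92 to 3.91 times in the mean, and the ranges never overlapped. At 37C it ran from 492 to 718 FPKM in WT (median 604) and from 144 to 244 FPKM in Bmal1-/- cells (median 173). At 27C it ran from 639 to 1041 FPKM in WT (median 912) and from 193 to 267 FPKM in Bmal1-/- cells (median 238). Bmal1-/- relative to WT was −1.97 there on the log2 scale, or −1.74 with the CT14 libraries kept. The value is per gene, so the p16INK4a and p19ARF transcripts cannot be told apart in it.

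Cdkn2b (p15INK4b), which lies 11645 bases from Cdkn2a on chromosome 4, differed far less. Its mean was 1.03 times higher in WT in AM, 1.05 times in PM, 1.35 times at 37C, 1.34 times at 32C and 1.53 times at 27C, and its ranges were separate only at 27C and 32C. At 27C it ran from 86.2 to 129 FPKM in WT (median 103.7) and from 59.7 to 75.9 FPKM in Bmal1-/- cells (median 69.6). The ratio of WT to Bmal1-/- means thus ran from 2.92 to 3.91 for Cdkn2a and from 1.03 to 1.53 for its neighbour.

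Cdkn2c (p18INK4c) was 1.56 to 2.34 times higher in WT in 4 conditions, with ranges that did not overlap. At 37C it ran from 19 to 30.6 FPKM in WT (median 23.8) and from 9.05 to 13.4 FPKM in Bmal1-/- cells (median 11.1). At 27C it ran from 12.1 to 21.2 FPKM in WT (median 16) and from 13.2 to 20.5 FPKM in Bmal1-/- cells (median 16.8), so the genotypes overlapped there. Cdkn2d (p19INK4d, not the same protein as p19ARF) had overlapping ranges in all 5 conditions, with course medians between 6.65 and 8.86 FPKM.

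The temperature courses were then compared within each genotype. This contrast was not used to choose the set, though the set and the tests were chosen with earlier results of these data known. Differences are on the log2(FPKM + 1) scale, which understates changes of genes near 1 FPKM. They come from limma with p-values adjusted by Benjamini-Hochberg over all 13031 genes tested, and a gene counts as changed at an adjusted p under 0.05 with at least a 2-fold difference. Each temperature is 1 course per genotype, so temperature and the culture or run that carried it cannot be told apart. The median over all genes was itself 0.21 higher at 27C than at 37C and 0.13 higher at 32C than at 37C in both genotypes, and scaling the libraries by the median of ratios brought these medians to 0.0 and 0.01.

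By that rule 0 of the 8 genes changed in any of the 4 comparisons with 37C by limma. With a pseudocount of 0.1 FPKM, Cdkn1a in WT and Cdkn1c in Bmal1-/- cells passed it at 27C. Over all genes 13.6% changed between 37C and 27C in WT (8.38% higher and 5.21% lower at 27C) and 11.7% in Bmal1-/- cells (7.64% and 4.04%). Between 37C and 32C it was 3.29% in WT (1.93% and 1.37%) and 2.71% in Bmal1-/- cells (1.77% and 0.944%). By the adjusted p alone, at 27C 5 genes were higher and 3 lower in WT and 4 were higher and 1 lower in Bmal1-/- cells, and at 32C 4 were higher and 4 lower in WT and 5 were higher and 0 lower in Bmal1-/- cells. That rule passes 87.1% of all genes at 27C in WT (57.2% higher and 29.9% lower) and 85.8% in Bmal1-/- cells (57.4% and 28.4%). At 32C it passes 79.2% in WT (54.5% higher, 24.6% lower) and 76.8% in Bmal1-/- cells (54.7%, 22.1%), so passing it does not set the 8 genes apart. After scaling the counts of higher and lower genes were 4 and 3 in WT and 4 and 4 in Bmal1-/- cells at 27C, while the 32C counts became 4 and 4 (WT) and 3 and 2 (Bmal1-/-). At an unadjusted p under 0.05 the counts were 8, 6, 8 and 5 genes. Of all genes that changed at 27C, 61.7% (WT) and 65.4% (Bmal1-/-) were higher, and after scaling 38.2% and 41.7%. At 32C these shares were 58.5% and 65.2%, and after scaling 43.6% in WT, with 164 genes higher and 164 lower in Bmal1-/- cells.

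Cdkn1a came nearest to the threshold, in WT cells. Its mean was 1.91 ± 0.356 FPKM at 37C (SD, n = 24), 3.16 ± 0.626 FPKM at 32C (n = 24) and 4.87 ± 1.12 FPKM at 27C (n = 23). The lowest 27C library, 3.07 FPKM, lay above the highest 37C library, 2.60 FPKM, and 27C was higher at 23 of 23 matched time points. The limma difference was 0.99 ± 0.04 (SE; adjusted p = 5.2e-52), which is 1.99-fold on this scale, and 0.81 after scaling. With a pseudocount of 0.1 FPKM it was 1.29 and with the CT14 libraries kept 1.17, both past 2-fold.

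In Bmal1-/- cells Cdkn1a was 124.9 ± 12.5 FPKM at 37C (SD, n = 24), 140 ± 7.25 FPKM at 32C (n = 24) and 118 ± 12.2 FPKM at 27C (n = 23), with ranges that overlapped throughout. The difference of 27C from 37C was −0.08 ± 0.04 (limma, adjusted p = 0.0511), and −0.32 after scaling. The gene thus sat at opposite sides of the all-gene median of 0.21 in the 2 genotypes.

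The INK4 gene Cdkn2b was higher at 27C in both genotypes, by 0.85 ± 0.03 in WT (adjusted p = 9.3e-59) and by 0.67 ± 0.03 in Bmal1-/- cells (adjusted p = 2.6e-48) by limma, at 23 of 23 time points in each. Its neighbour Cdkn2a was also higher at 27C, by 0.61 ± 0.03 in WT and 0.38 ± 0.03 in Bmal1-/- cells, at 22 of 23 time points in each. Both genes stayed higher after scaling, Cdkn2b by 0.61 and 0.44 and Cdkn2a by 0.37 and 0.14. Neither reached 2-fold.

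Cdkn2c was lower at 27C in WT cells, with a difference of −0.52 ± 0.03 (limma, adjusted p = 1.6e-29), and was higher at 0 of 23 time points. In Bmal1-/- cells it was higher, by 0.58 ± 0.03 (limma, adjusted p = 6.0e-33) and at 23 of 23 time points. The directions held after scaling, at −0.75 and 0.35. Its WT and Bmal1-/- ranges, separate at 37C, overlapped at 27C.

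Cdkn1c was higher at 27C by 0.71 ± 0.08 in WT (limma, adjusted p = 2.0e-13) and by 0.86 ± 0.08 in Bmal1-/- cells (adjusted p = 1.7e-17). Its Bmal1-/- means were 1.51 FPKM at 37C and 3.45 FPKM at 27C, and with a pseudocount of 0.1 FPKM it went past 2-fold there. At 32C, in contrast, it was lower than at 37C in WT, with a difference of −0.82 ± 0.08 (adjusted p = 1.6e-16), and was higher at 0 of 24 time points. It differed by 0.10 ± 0.08 in Bmal1-/- cells (adjusted p = 0.266). Its WT level therefore did not follow the order of the temperatures, with medians of 10.2, 2.88 and 6.75 FPKM at 27C, 32C and 37C.

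Trp53 was 0.24 ± 0.03 higher at 27C in WT by limma (adjusted p = 1.2e-14), which is close to the shift of all genes and became 0.0 after scaling. In Bmal1-/- cells it was lower, with a difference of −0.23 ± 0.03 (adjusted p = 6.2e-14), higher at 0 of 23 time points and −0.47 after scaling. Cdkn1b was lower at 27C in WT, with a difference of −0.34 ± 0.02 (adjusted p = 9.3e-28), and by 0.04 ± 0.02 higher in Bmal1-/- cells (adjusted p = 0.112), a difference that scaling turned to −0.20. Cdkn2d was lower at 27C in WT, with a difference of −0.23 ± 0.04 (adjusted p = 1.3e-08), and by 0.06 ± 0.04 higher in Bmal1-/- cells (adjusted p = 0.121), which scaling turned to −0.15. At 32C the largest WT difference after that of Cdkn1c was Cdkn1a, 0.51 ± 0.04 (adjusted p = 2.4e-26), at 24 of 24 time points higher. No other difference from 37C at 32C went past 0.39 in WT or 0.25 in Bmal1-/- cells.

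**Figure D2:**
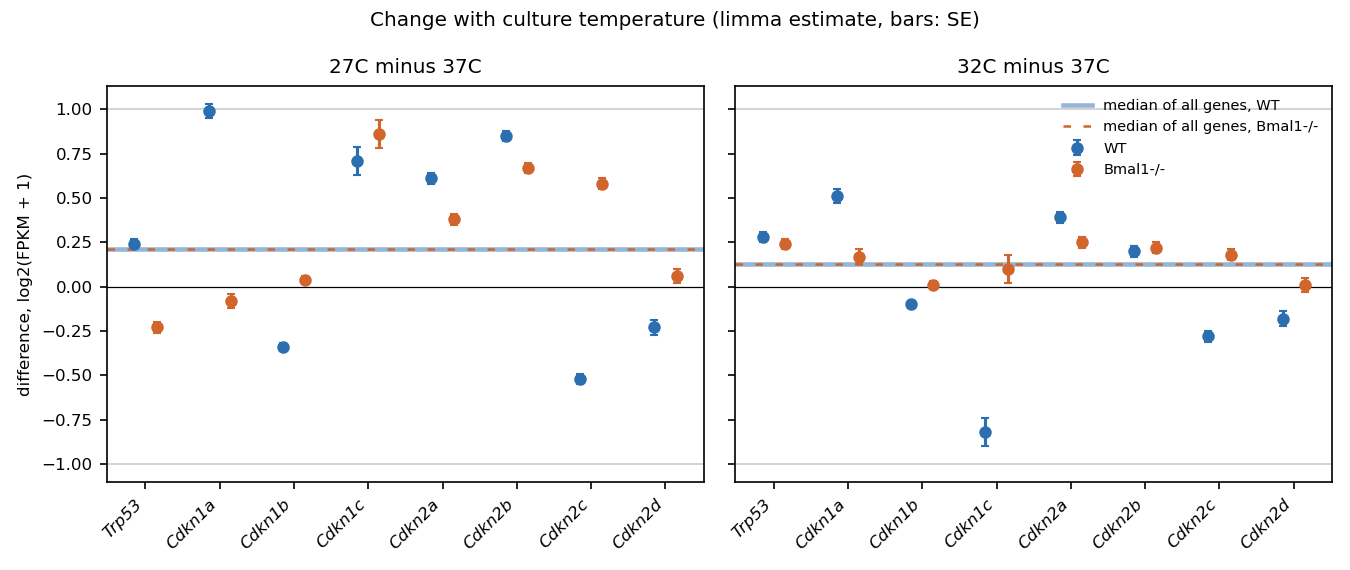
Difference of 27C (left) and 32C (right) from 37C in log2(FPKM + 1) for the 8 genes, with WT in blue, Bmal1-/- in orange and bars of 1 SE. Blue and dashed orange lines mark the median of all genes, which is 0.21 and 0.13 in both genotypes, and grey lines mark a 2-fold difference. Cdkn2c lies below 0 in WT and above 0 in Bmal1-/- cells at 27C.

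The interaction, the 27C difference in Bmal1-/- cells minus that in WT cells, was tested in the same limma fit. It passed the threshold for 2 of the 8 genes, Cdkn1a at −1.07 ± 0.05 and Cdkn2c at 1.10 ± 0.05 (adjusted p = 9.1e-44). Over all genes 4.41% passed, 2.74% with a positive and 1.67% with a negative value. By the adjusted p alone 7 of the 8 passed, 3 with a positive and 4 with a negative value, beside 68.9% of all genes (34.2% and 34.6%). Scaling left the values at −1.12 and 1.11, and Cdkn1a was at −1.45 with the CT14 libraries kept. Since the genotype enters this contrast, and with it the gap in Cdkn1a that the set was chosen on, the Cdkn1a value is not independent of the choice. It is given as a description, without its p. On the log2 scale a step of a few FPKM is large at the WT level of Cdkn1a and small at its Bmal1-/- level. The Cdkn1a value therefore depends on the scale. The corresponding interaction at 32C was not tested.

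The other values of the interaction were Trp53 −0.48 ± 0.04, Cdkn1b 0.38 ± 0.03, Cdkn2d 0.29 ± 0.05, Cdkn2a −0.23 ± 0.05, Cdkn2b −0.18 ± 0.04 and Cdkn1c 0.15 ± 0.12, of which only that of Cdkn1c missed the adjusted p (0.270). The median over all genes was 0.0. For Trp53 the negative value corresponds to the genotype ratio of 1.76 at 37C and 1.25 at 27C.

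**Figure D3:**
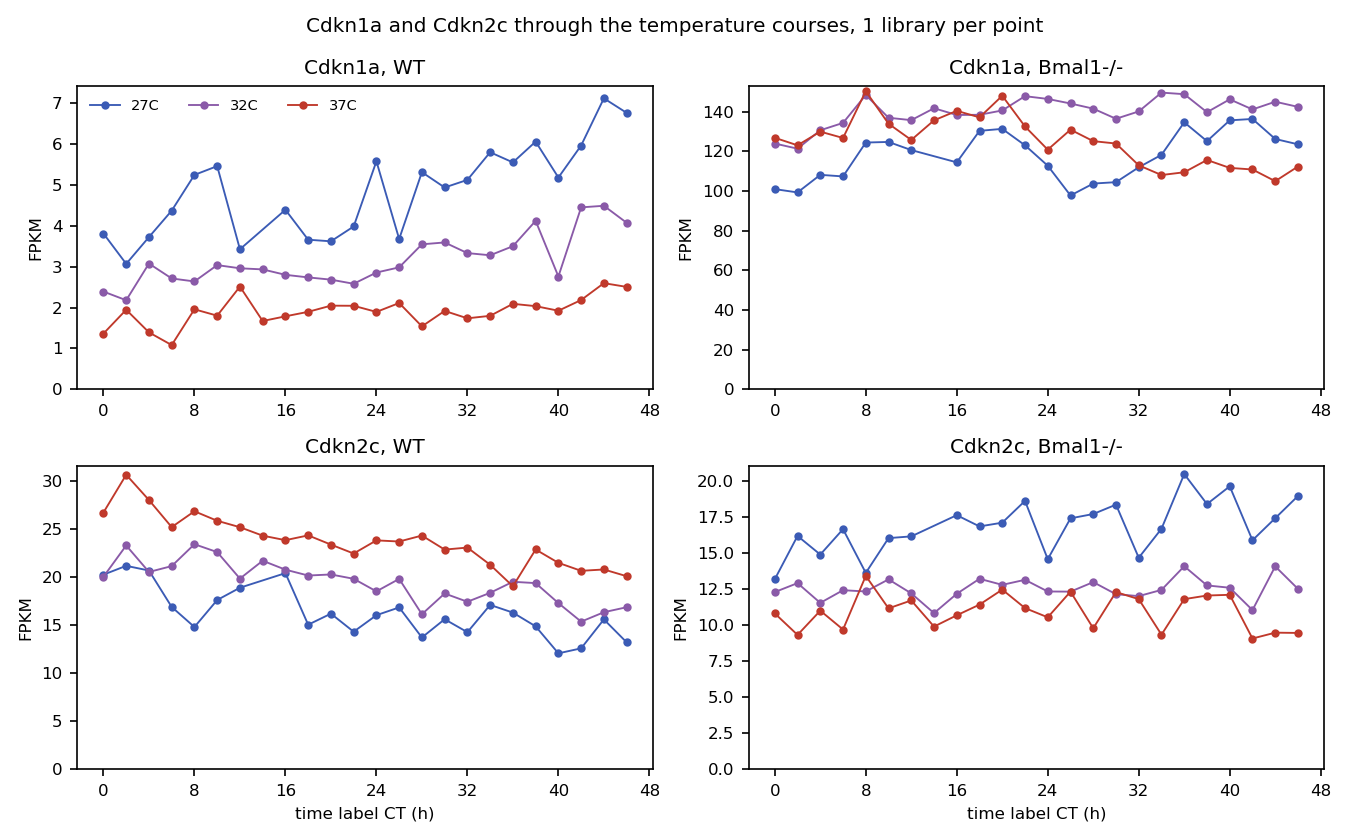
FPKM of Cdkn1a (top) and Cdkn2c (bottom) against the CT label in hours, in WT (left) and Bmal1-/- cells (right), at 27C (blue), 32C (purple) and 37C (red), 1 library per point and without CT14 at 27C. The vertical axes start at 0 and differ between panels. WT Cdkn1a runs from 1.08 to 2.60 FPKM at 37C and from 3.07 to 7.12 FPKM at 27C, and 27C is the highest course of Cdkn2c in Bmal1-/- cells.

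Summed levels of markers of other cell types also differed between these groups, and a sum can hide members that moved in opposite directions. The summed level of the 5 macrophage markers had a median of 7.65 FPKM in WT at 37C (range 6.43 to 10.0), with 2 of 5 genes at 1 FPKM or more, and of 32.5 FPKM in WT at 27C (24.9 to 41.4), again with 2 of 5, of which Cd68 held 30.4 FPKM. In Bmal1-/- cells it was 2.06 FPKM at 37C (1.17 to 3.07, 1 of 5) and 25.8 FPKM at 27C (18 to 41.5, 2 of 5). In WT the leading gene was Lyz2 at 37C, at 5.10 FPKM, and Cd68 at 27C. In Bmal1-/- cells Cd68 led at 37C and 27C, with 1.06 and 24.4 FPKM. The defining leukocyte genes Ptprc and Adgre1 were at 0 in all of these courses. The 5 adipocyte markers summed to 95.1 FPKM in WT (65.6 to 112, 3 of 5) and 190 FPKM in Bmal1-/- cells (146 to 228, 4 of 5) at 37C, and to 30.6 FPKM (21.8 to 39.2, 2 of 5) and 47.8 FPKM (34.3 to 60.4, 3 of 5) at 27C, led by Lpl or Pparg. Plin1 was at 0 in WT at both temperatures, and Adipoq at 27C in both genotypes. The 5 melanocyte and Schwann markers summed to 19.2 FPKM in WT (13.1 to 23.1, 2 of 5) and 2.71 FPKM in Bmal1-/- cells (2.23 to 5.21, 1 of 5) at 37C, and to 9.73 FPKM (4.72 to 14.7, 2 of 5) and 1.09 FPKM (0.612 to 1.73, 0 of 5) at 27C, with Tyr and Sox10 at 0 throughout. The keratinocyte, endothelial and muscle lists reached at most 5.69, 6.28 and 0.479 FPKM in any library. The part of these shifts in the results on the 8 genes was not tested.

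The PM and AM courses were compared in a fit of their own over 13307 genes. By limma 0 of 8 genes changed in either genotype, where 2.38% of all genes did in WT (1.61% higher and 0.774% lower in PM) and 1.16% in Bmal1-/- cells (0.519% and 0.646%). Of the 8, 7 and 6 had an unadjusted p under 0.05. By the adjusted p alone 5 genes were higher and 2 lower in PM in WT and 3 were higher and 3 lower in Bmal1-/- cells, against 66.9% of all genes in WT (45% higher and 21.9% lower) and 63.6% in Bmal1-/- cells (44.1% and 19.5%). Of the genes that changed, 67.5% and 44.5% were higher in PM, and after scaling 55.4% and 35.5%. For the 8 genes it was then 3 higher and 3 lower by the adjusted p in WT and 2 and 3 in Bmal1-/- cells. Cdkn1c had the largest difference in both genotypes, 0.73 ± 0.08 in WT (adjusted p = 8.8e-12; 17 of 17 time points higher) and 0.51 ± 0.08 in Bmal1-/- cells (adjusted p = 1.9e-07; 16 of 17). Its medians were 8.70 and 16 FPKM in WT AM and PM and 1.44 and 2.54 FPKM in Bmal1-/- AM and PM.

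Among the other genes, Cdkn1a was higher in PM in WT, by 0.35 ± 0.05 (limma, adjusted p = 1.1e-07), and differed by 0.00 ± 0.05 in Bmal1-/- cells (adjusted p = 0.989). Cdkn2c was higher in PM by 0.36 ± 0.04 in Bmal1-/- cells (adjusted p = 2.7e-11) and by 0.20 ± 0.04 in WT (adjusted p = 2.7e-05), the latter 0.08 and past no threshold after scaling. Cdkn2b was lower in PM in both genotypes, with differences of −0.17 ± 0.03 and −0.18 ± 0.03. Whether these differences are unlike in the 2 genotypes was not tested.

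A rhythm of 24 h was tested in each course with a cosine and a sine beside a linear trend. Of the 80 pairs of a gene and a course, 5 passed an adjusted p under 0.05 by limma, 2 of them in Cdkn1a. The 5 were Cdkn1a in Bmal1-/- 27C (amplitude 0.16 ± 0.04 on the log2 scale, highest at CT15.5, adjusted p = 0.0165), Cdkn1a in WT AM (0.24 ± 0.05, CT12.6, 0.0185), Cdkn2d in Bmal1-/- 37C (0.15 ± 0.04, CT18, 0.0254), Cdkn2a in Bmal1-/- 37C (0.13 ± 0.04, CT18.4, 0.0281) and Cdkn2b in WT 27C (0.12 ± 0.03, CT17.7, 0.0366). The share of all genes passing was 3.85%, 5.61%, 2.15%, 0.253% and 4.92% in WT AM, PM, 27C, 32C and 37C, and 3.40%, 3.02%, 9.85%, 2.06% and 8.46% in the same Bmal1-/- courses.

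These rhythms were small, with a highest to lowest ratio of 1.18 to 1.39 on the fitted curve, and no gene passed in more than 2 of 10 courses. The WT AM rhythm of Cdkn1a rests on the shallow CT36 library. Without it the amplitude was 0.15 and no longer passed. With the CT14 libraries kept, the rhythms of Cdkn1a in Bmal1-/- 27C (amplitude 0.35), Cdkn2b in WT 27C (0.08) and Cdkn2a in Bmal1-/- 37C (0.13) did not pass, while Cdkn2a (0.31) and Cdkn2b (0.14) in Bmal1-/- 27C did, so 4 passed in all. The Bmal1-/- 37C course itself holds no CT14 27C library, and its amplitude is unchanged, but the estimate of spread is shared across the fit. The rhythm of Cdkn2d in Bmal1-/- 37C did not pass without the linear trend (0.09). Trp53, Cdkn1b, Cdkn1c and Cdkn2c passed in 0 of 10 courses.

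Slow drifts over the 46 to 48 h of a course were more frequent. The linear trend passed an adjusted p under 0.05 by limma in 30 of 80 pairs. By course this was 3 of 8 genes in WT AM, 3 in WT PM, 4 in WT 27C, 5 in WT 32C and 5 in WT 37C, where 13.3%, 17.4%, 36.8%, 30.2% and 26.6% of all genes passed. In the Bmal1-/- courses it was 1, 0, 4, 1 and 4 genes, where 7.52%, 4.88%, 23.2%, 15.6% and 37.2% passed.

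Cdkn1a rose along the WT temperature courses, by 0.37 ± 0.05 per 24 h on the log2 scale at 27C (limma, adjusted p = 4.9e-10), 0.30 ± 0.05 at 32C (adjusted p = 2.6e-07) and 0.14 ± 0.05 at 37C (adjusted p = 0.0219). The highest WT value of each of these courses was at CT44. It rose in WT AM by 0.20 ± 0.07 (adjusted p = 0.0320), or 0.13 and no longer passing without the CT36 library. It fell in WT PM by 0.27 ± 0.07 (adjusted p = 0.00284) and in Bmal1-/- 37C by 0.19 ± 0.05 (adjusted p = 8.6e-04). With the CT14 libraries kept under their labels the WT 27C trend was −0.02, and the trends in WT 32C, WT 37C and Bmal1-/- 37C no longer passed. The 32C and 37C courses hold no such library and keep their slopes, but the fit shares its estimate of the spread per gene across all temperature courses.

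Cdkn1c fell along the 3 WT temperature courses, by 0.69 ± 0.12 per 24 h at 27C (limma, adjusted p = 3.8e-07), 0.43 ± 0.11 at 32C (adjusted p = 0.00142) and 0.48 ± 0.11 at 37C (adjusted p = 3.1e-04). Its WT level at 27C was 22.6 FPKM at CT0 and 7.07 FPKM at CT46. It had its highest value at CT0 in each of these courses.

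Of the 20 pairs of an INK4 gene and a WT course, 11 passed as falls and 0 as rises. In these courses 13.3% to 36.8% of all genes passed in either direction, with median trends over all genes of −0.01 to 0.01. The falls and rises of all genes were not counted apart and the pairs share libraries, so nothing is read from this split. Cdkn2d passed in 0 of the 5 WT courses, with values of −0.10 to 0.06. Cdkn2c fell by 0.27 ± 0.05, 0.23 ± 0.05 and 0.22 ± 0.05 per 24 h at 27C, 32C and 37C in WT (limma, adjusted p = 7.5e-07, 1.9e-05 and 6.3e-05), and rose by 0.13 ± 0.05 in Bmal1-/- 27C (adjusted p = 0.0248). Cdkn2a fell in 5 courses, by 0.27 ± 0.04 in WT 32C (adjusted p = 2.0e-07), 0.23 ± 0.04 in WT 37C, 0.21 ± 0.03 in WT PM, 0.12 ± 0.03 in WT AM and 0.16 ± 0.04 in Bmal1-/- 37C. Cdkn2b fell by 0.10 to 0.15 in 4 WT courses and rose in Bmal1-/- AM by 0.23 ± 0.03 (adjusted p = 1.5e-06) and in Bmal1-/- 32C by 0.17 ± 0.04 (adjusted p = 1.5e-04). With the CT14 libraries kept, Cdkn2a in WT 37C and Bmal1-/- 37C and Cdkn2b in WT 32C no longer passed, though these courses hold none of those libraries and only share the estimate of spread. The difference between the genotypes in these trends was not tested.

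Trp53 fell in 3 courses, by 0.23 ± 0.04 per 24 h in WT 27C (limma, adjusted p = 1.8e-07), 0.21 ± 0.04 in Bmal1-/- 37C (adjusted p = 1.0e-06) and 0.18 ± 0.04 in Bmal1-/- 27C (adjusted p = 4.5e-05). Cdkn1b passed in 1 course, with a fall of 0.11 ± 0.03 in Bmal1-/- 27C, which was −0.06 and did not pass with the CT14 libraries kept, where WT 27C passed at −0.17. Cdkn2d rose by 0.21 ± 0.05 in Bmal1-/- 27C and fell by 0.17 ± 0.05 in Bmal1-/- 37C.

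**Figure D4:**
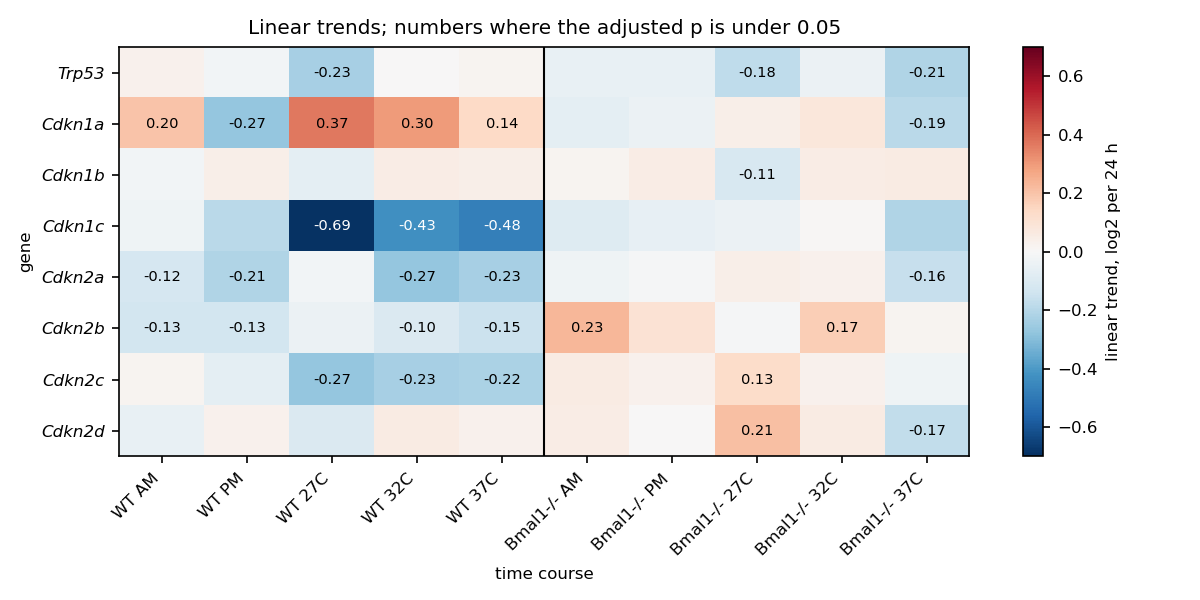
Linear trend in log2(FPKM + 1) per 24 h of the 8 genes (rows) in the 10 courses (columns, WT left of the line), as a colour from falling (blue) to rising (red). Numbers are printed for the 30 pairs with an adjusted p under 0.05. Cdkn1a rises in 4 WT courses, and Cdkn1c falls in the 3 WT temperature courses.

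Deviations of each library from the mean of its course were compared between genes over the 210 libraries. The largest correlation within the set was between the neighbours Cdkn2a and Cdkn2b (Pearson's r = 0.62), followed by Cdkn2a with Cdkn2c (0.41) and Cdkn1c with Cdkn2c (0.39). Trp53 and Cdkn1a had r = 0.09. These points share libraries, depth and the FPKM scale, and no p is given. Only the course mean was taken out, so drifts along a course that genes have in common remain in these values.

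Among 13163 genes, those most like Cdkn2a were Selenow (r = 0.80), a small selenoprotein gene, the ribosomal protein gene Rpl13a (0.78) and Nop53 (0.77), and 3.97% of all genes had r above 0.5 with it. The gene most like Cdkn2b was the ferritin gene Fth1 (0.72), with Cdkn2a second and Rcn3 next (0.59). For Cdkn1a they were Lbp (0.56), Atoh8 (0.50) and Ahsa1 (0.47). For Trp53 they were Vim (0.59), Anxa5 (0.56) and Plscr3 (0.55), and for Cdkn1c they were Pkm (0.63), Tspo (0.61) and Gbp5 (0.61). For Cdkn1b they were Ptges3 (0.53), Zfp758 (0.52) and mt-Co1 (0.50), for Cdkn2c Ptgr1 (0.60), Prdx4 (0.55) and Csrp2 (0.55), and for Cdkn2d Slc35b2, Cyba and Tmem14c (0.52 each).

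Genes around the 8 in the same pathways were counted from lists. Of 13 tested regulators of p53, 1 rose and 1 fell at 27C against 37C in WT by limma, a comparison in which 13.6% of all genes changed. Ppm1d, a phosphatase that dampens p53, rose by 1.06 ± 0.03 (adjusted p = 1.1e-69; means 3.18 and 7.72 FPKM at 37C and 27C), or 0.86 and short of 2-fold after scaling. Trp53bp1, a DNA damage adaptor, fell by 1.2 ± 0.06 (adjusted p = 7.8e-38; 24.2 and 10.3 FPKM). By limma 0 of 13 changed in Bmal1-/- cells, where 11.7% of all genes did, with 10 at an unadjusted p under 0.05. The list medians were 0.30 and −0.04, beside 0.21 for all genes in both genotypes.

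Between the genotypes, Mdm2, the p53 target that closes the feedback on p53, had means of 13.4 FPKM in WT and 93.6 FPKM in Bmal1-/- cells at 37C and 22.1 and 120 FPKM at 27C. Mdm4, which binds and restrains p53, had means of 9.56 and 20.9 FPKM at 37C. Chek1, a checkpoint kinase, had means of 4.18 and 1.31 FPKM. These are descriptions, as for the 8 genes.

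For 21 tested p53 target genes, Cdkn1a and Mdm2 not counted, the median difference of Bmal1-/- from WT was 1.66 to 2.12 on the log2 scale in the 5 conditions, beside −0.02 to 0.02 for all genes. Since these are targets of p53, as Cdkn1a is, the list is not independent of the contrast that the set was chosen on, and nothing is read from it. Eda2r, a receptor of the TNF receptor family, had means of 1.04 FPKM in WT and 36.8 FPKM in Bmal1-/- cells at 37C, and the cyclin G1 gene Ccng1 had 21.3 and 212 FPKM.

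At 27C against 37C, 1 of the same 21 targets rose and 1 fell in WT by limma, where 13.6% of all genes changed. Trp53inp1 rose by 1.5 ± 0.04 (adjusted p = 6.6e-62; means 7.05 and 21.9 FPKM at 37C and 27C), and the death receptor gene Fas fell by 1.59 ± 0.05 (adjusted p = 3.0e-63; 5.36 and 1.12 FPKM). A single target, Ei24, rose in Bmal1-/- cells, by 1.16 ± 0.02 (adjusted p = 2.9e-77; 93.8 and 213 FPKM), or 0.92 and short of 2-fold after scaling, and 0 fell, where 11.7% of all genes changed. The list medians were 0.51 in WT and 0.23 in Bmal1-/- cells beside 0.21 for all genes. The interaction passed for 0 of 21 targets by limma, with 17 at an unadjusted p under 0.05 and a list median of −0.06, for 4 with a pseudocount of 0.1 FPKM and for 2 with the CT14 libraries kept. Over all genes 4.41% passed it in the main fit.

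Among 13 tested CDKs and cyclins, Ccnd1 and Ccnd2, which encode D cyclins, the partners of Cdk4 and Cdk6, fell at 27C in both genotypes. In WT cells 3 of the 13 fell and 1 rose by limma, where 5.21% of all genes fell and 8.38% rose. Ccnd2 fell by 2.28 ± 0.05 (adjusted p = 1.1e-72; means 91.9 and 18.1 FPKM), Ccnd1 by 1.56 ± 0.05 (27.4 and 8.59 FPKM) and Ccnd3 by 1.03 ± 0.03 (93.1 and 45.1 FPKM), and the mitotic cyclin Ccnb2 rose by 1.54 ± 0.07 (2.08 and 8.51 FPKM). Of the same 13, 2 fell in Bmal1-/- cells, Ccnd2 by 1.51 ± 0.05 (130 and 45.1 FPKM) and Ccnd1 by 1.07 ± 0.05 (15.9 and 7.24 FPKM), and 0 rose, where 4.04% of all genes fell and 7.64% rose. Ccnd3 was not called there, with means of 53.1 and 46.7 FPKM. The interaction called Ccnb2 at −1.23 ± 0.09 (adjusted p = 1.3e-23). The list medians were 0.12 in WT and −0.15 in Bmal1-/- cells beside 0.21 for all genes.

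Of 14 tested RB, E2F and DREAM genes, 1 rose and 0 fell at 27C in each genotype by limma, Tfdp2, a partner of E2F factors, by 1.57 ± 0.04 in WT (adjusted p = 4.2e-73; means 8.05 and 26 FPKM) and by 1.66 ± 0.04 in Bmal1-/- cells (adjusted p = 1.5e-75; 13.4 and 44.6 FPKM). Over all genes 8.38% rose and 5.21% fell in WT, and 7.64% rose and 4.04% fell in Bmal1-/- cells. The list medians were 0.28 and 0.33 beside 0.21 for all genes. Between the genotypes at 37C, Rb1 had means of 3.65 FPKM in WT and 10.8 FPKM in Bmal1-/- cells. At 32C against 37C, 0 genes of the p53 regulator, p53 target, CDK and cyclin and RB lists changed in either genotype by limma, with 13, 19, 10 and 8 genes in WT and 9, 18, 10 and 11 genes in Bmal1-/- cells at an unadjusted p under 0.05. Over all genes 3.29% changed there in WT and 2.71% in Bmal1-/- cells, and 79.2% and 76.8% passed the adjusted p alone.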

How the data were processed

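Polyadenylated RNA of 212 samples was sequenced from a stranded kit, per the labels' protocols. The authors deposited 1 table of FPKM values per gene and library, and the submitters' processing notes name TopHat2 2.1.0, Cuffdiff and build GRCm38. Use of strand in the counting and the versions of Cuffdiff and of the annotation: not given in the sources used here. Of the 47631 identifiers, 47217 matched a gene name.

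FPKM keeps no counts, so depth was estimated from low values. In 1357 genes, 93.8% of values, taken at the estimated depth, were whole fragments to within 0.15. Estimated depths were not used in any test, and no interval is given for single values.

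The 8 genes, the gene lists and the tests were chosen with earlier results of these data known. Means, ranges and ratios were computed on FPKM without the 2 CT14 27C libraries. For differences, limma 3.58.1 was run in R 4.3.3 (eBayes with trend, two-sided) on log2(FPKM + 1), for genes averaging 1 FPKM or more, in 1 fit for the 142 temperature libraries and 1 for the 68 AM and PM libraries, with an intercept, linear time, cosine and sine of 24 h for each course. P-values were adjusted by Benjamini-Hochberg over all genes of a fit. A level counts as changed with 2-fold or more and an adjusted p under 0.05, and a rhythm or trend at an adjusted p under 0.05. The fits were tested on simulated data with independent noise and no drifts. The courses here are serial and drift, so that test cannot check their p-values.

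Named genes are the 8, up to 4 changed genes per list and comparison with the largest change, and the 3 genes most like each of the 8 by Pearson correlation, predicted genes and pseudogenes left out. The alternatives were a pseudocount of 0.1 FPKM, no filter, median-of-ratios scaling, each genotype in a fit of its own, the CT14 libraries kept, the WT CT36 AM library left out, time point as a block, and rhythm or trend fitted alone.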

Additional observations from a re-analysis of the deposited data

Results flagged for a closer look

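Cdkn1a and Cdkn2c are listed because their change from 37C to 27C differed between the genotypes by the interaction test in limma. The value, Bmal1-/- minus WT on the log2 scale, was −1.07 for Cdkn1a (0.99 in WT and −0.08 in Bmal1-/- cells) and 1.10 for Cdkn2c (−0.52 in WT and 0.58 in Bmal1-/- cells). Both passed under every alternative that holds both genotypes in the same fit. The gap of Cdkn1a between the genotypes, on which the set was chosen, enters this contrast. The Cdkn1a value is therefore not independent of the choice and is given as a description.

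The 2 CT14 27C libraries are listed because they carry a signal outside the comparisons. Cdkn1a was 109.5 FPKM in the library labelled WT, where the other 23 WT libraries at 27C ran from 3.07 to 7.12 FPKM, and 3.872 FPKM in the library labelled Bmal1-/-, where the other 23 ran from 97.8 to 136 FPKM. Cdkn1b was 49.4 and 25.1 FPKM, Cdkn1c 2.89 and 9.91 FPKM, Cdkn2a 189 and 987 FPKM and Cdkn2b 62.3 and 119 FPKM in the libraries labelled WT and Bmal1-/-. Trp53 was 50.1 and 58.8 FPKM, within the range of both genotypes for the first and of Bmal1-/- cells for the second.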

How the results depend on the processing

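Counts of changed genes among the 8 moved in these cases. With a pseudocount of 0.1 FPKM, 1 gene passed at 27C against 37C in WT (Cdkn1a, 1.29) and 1 in Bmal1-/- cells (Cdkn1c, 1.23), where the main counts are 0. With the CT14 27C libraries kept under their labels, 1 gene passed in WT (Cdkn1a, 1.17). Without the linear term 3 rhythms passed in place of 5. Each of the 5 rhythms lost its call under at least 1 alternative, with 4 to 7 rhythms passing under the other alternatives. The Cdkn1a trend in WT 27C turned to −0.02 with the CT14 libraries kept, and the Cdkn1a ratio of genotype means at 27C was then 3.62 on the log2 scale in place of 4.60. Linear trends numbered 30, and 23 with the CT14 libraries kept. The other counts among the 8 stayed within 1.5 times of the main count under every alternative run. The interaction passed for 2 genes under each alternative that can test it, which a fit of each genotype on its own cannot. Over all genes the pseudocount of 0.1 FPKM raised the counts of changed genes at 32C from 429 to 723 in WT and from 353 to 644 in Bmal1-/- cells, of the interaction from 575 to 892, and of PM against AM from 317 to 541 in WT and from 155 to 311 in Bmal1-/- cells. The cause of these shifts was not tested. Estimated fragments limit Cdkn1a in WT, at 47 to 274 per library, and Cdkn1c in Bmal1-/- cells, at 30 to 201. With time point as a replicate block, which pairs libraries of the same CT across courses, Cdkn1a in WT at 27C was at 1.00, just short of 2-fold, and the block left the counts of changed genes among the 8 at 0, with 2 for the interaction.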

Other observations

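Genes around the set were counted at 27C against 37C from 4 further lists by limma, beside 0.21 for the median of all genes. In this comparison 13.6% of all genes changed in WT and 11.7% in Bmal1-/- cells. By the adjusted p alone 87.1% and 85.8% of all genes passed, so low p-values do not set these lists apart. Of 12 tested genes that act in the breakdown of p27 and p21, 1 rose in WT, Cdc20, an activator of the anaphase ligase, by 1.46 ± 0.07 (adjusted p = 1.5e-41; means 3.87 FPKM at 37C and 13.1 FPKM at 27C), and 0 in Bmal1-/- cells, with 11 at an unadjusted p under 0.05. The list medians were 0.27 and 0.55. Of 13 tested regulators of the Cdkn2a-Cdkn2b locus 0 changed in WT, with 13 at an unadjusted p under 0.05, and 0 in Bmal1-/- cells, with 11. Of 2 tested neighbours of that locus, Mtap and Klhl9, 0 changed in either genotype, with 2 and 2 at an unadjusted p under 0.05. Of 4 tested genes of the imprinted domain of Cdkn1c 0 changed, with 4 and 4.

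Between the genotypes these are descriptions. Cbx7, a Polycomb protein that represses Cdkn2a, had means of 7.29 FPKM in WT and 0.830 FPKM in Bmal1-/- cells at 37C. Tbx3, another repressor of the locus, had 4.82 and 16.3 FPKM. Whether either bears on the level of Cdkn2a was not tested. Mtap, the gene next to Cdkn2a, had medians of 21.1 and 22 FPKM at 37C and 28.6 and 33 FPKM at 27C, with ranges that overlapped. In the imprinted domain Cd81 had means of 339 and 585 FPKM and Slc22a18 had 0.428 and 2.88 FPKM at 37C, the opposite direction to Cdkn1c. Of the 4 tested genes of the domain, 2 were higher and 2 lower in Bmal1-/- cells at 37C. At 27C and in AM, 3 were higher and 1 was lower. Their median difference of Bmal1-/- from WT ran from 0.3 to 0.92 on the log2 scale over the 5 conditions. The median of all genes ran from −0.02 to 0.02. In PM against AM in WT, Cbx7 rose by 1.02 ± 0.07 (limma, adjusted p = 8.3e-19; means 6.69 and 14.5 FPKM), or 0.91 and short of 2-fold after scaling.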
